A study of Mus musculus with 5 samples.

Results

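The genes described here are the 4 adult haemoglobin genes of the mouse, Hba-a1, Hba-a2, Hbb-bs and Hbb-bt, with Alas2 and Bpgm. They were taken by symbol from the gene lists of the deposited matrices, where each of the 6 symbols names 1 of 33696 listed genes. The study profiled blood mononuclear cells of C57BL/6N mice by droplet single-cell RNA sequencing in a regimen used to model HFpEF, the form of heart failure in which the ejection fraction is preserved. The 2 chow libraries came from mice on regular chow. The 2 HFD + L-NAME libraries came from mice given a high-fat diet together with L-NAME, which inhibits nitric oxide synthases, for 15 weeks. The HFD + L-NAME + NO2-OA library came from mice on that regimen with NO2-OA, the nitrated fatty acid nitro-oleic acid, added in its last 4 weeks. Whether blood of several mice was pooled is not given in the sources used here. Sex and age of the mice are not given in the sources used here.

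Haemoglobin carries oxygen in red cells as a tetramer of alpha and beta chains around haem. Hba-a1 and Hba-a2 encode the alpha chain, Hbb-bs and Hbb-bt encode the beta chain, and Alas2 makes the erythroid form of the enzyme that starts haem synthesis. Bpgm makes bisphosphoglycerate mutase, which produces the red-cell metabolite that lowers the oxygen affinity of haemoglobin. A mature mouse red cell has no nucleus, and a reticulocyte, its youngest form in blood, still holds globin messenger RNA. The preparation was designed to remove red cells: blood was spun over Ficoll and treated with an ammonium chloride buffer that lyses them, before freezing and thawing.

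The 5 libraries held 8488 to 17997 barcodes and 71216133 to 122022000 unique molecular identifiers (UMIs, counts of captured transcript molecules), and any pair of libraries shared 28 to 77 barcodes. The labels do not say outright that the libraries are separate animals, so p-values measure the spread between these libraries, which may be technical. The replicate number coincides with a split of the libraries into 2 sets by their file names: set 1 holds chow 1, HFD + L-NAME 1 and the NO2-OA library, and set 2 holds chow 2 and HFD + L-NAME 2. Both comparisons below, HFD + L-NAME against chow and NO2-OA against HFD + L-NAME, share the HFD + L-NAME libraries. "Kept cells" are barcodes with at least 200 genes, a mitochondrial share below 10% and no doublet call, 7146 to 14689 per library.

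The promoters of the 6 genes are shown together with the likeness of the paired globin genes, which are near copies. For the transcripts of Hba-a1 and Hba-a2 this bears on the counts below. The 150 bases before each RefSeq transcript start (GRCm38.p6, not the build of the deposited counts, and all 6 genes matched) are given 5′ to 3′ on the strand of the gene. Capitals mark matches, on either strand, to the CCAAT box, the CACC box (CCACACCC), the TATA box as TATAAA, and the GATA motif as AGATAA or TGATAA.
Hba-a1, chr11:32283522-32283671, plus strand: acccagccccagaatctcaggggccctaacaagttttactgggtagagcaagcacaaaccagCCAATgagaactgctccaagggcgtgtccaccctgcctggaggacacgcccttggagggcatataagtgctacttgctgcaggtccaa
Hba-a2, chr11:32296342-32296491, plus strand: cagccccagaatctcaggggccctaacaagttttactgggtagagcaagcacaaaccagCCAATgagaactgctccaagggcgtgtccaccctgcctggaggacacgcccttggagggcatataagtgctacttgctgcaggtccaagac
Hbb-bs, chr7:103827929-103828078, minus strand: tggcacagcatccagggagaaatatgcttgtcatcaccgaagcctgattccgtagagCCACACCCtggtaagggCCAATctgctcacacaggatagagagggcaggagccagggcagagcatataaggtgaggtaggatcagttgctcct
Hbb-bt, chr7:103813924-103814073, minus strand: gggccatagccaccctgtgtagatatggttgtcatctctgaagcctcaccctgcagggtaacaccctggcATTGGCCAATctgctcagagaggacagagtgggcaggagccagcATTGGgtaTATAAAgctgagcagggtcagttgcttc
Alas2, chrX:150547267-150547416, plus strand: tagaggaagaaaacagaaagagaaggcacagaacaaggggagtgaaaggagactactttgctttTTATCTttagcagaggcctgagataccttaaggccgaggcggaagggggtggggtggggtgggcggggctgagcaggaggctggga
Bpgm, chr6:34476206-34476355, plus strand: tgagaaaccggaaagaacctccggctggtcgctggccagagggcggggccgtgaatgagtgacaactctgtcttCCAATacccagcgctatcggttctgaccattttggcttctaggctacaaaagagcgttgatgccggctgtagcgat

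A CCAAT match lies in 5 of the 6 windows, in all but Alas2, and in 24.5% of 32843 RefSeq promoter windows of the same length. Hbb-bs alone of the 6 has the CACC letters (2.18% of promoters), Hbb-bt alone has TATAAA (7.58%) and Alas2 alone has a GATA match (9.66%), on the minus strand, 86 bases before the start. These matches are letters and not shown binding sites. Variants of the TATA letters were not searched, such as the catataag in the Hba-a1, Hba-a2 and Hbb-bs windows. The Hba-a1 and Hba-a2 windows pair at 147 bases with 0 mismatches once shifted against each other. Their coding sequences, each 429 bases with the stop codon, are identical at 428 bases, and the 74-base 3′ untranslated region of Hba-a1 is contained in the 90-base region of Hba-a2. Since the assay reads 3′ ends, the division of reads between Hba-a1 and Hba-a2 is uncertain, and how reads matching both were counted is not given in the sources used here. Hbb-bs and Hbb-bt share 443 of 444 coding bases, but their 3′ untranslated regions are 71.2% identical and their promoter windows 73.9%.

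Red cells remained in every library. A barcode was counted as a red cell where the 6 genes held at least 50% of its UMIs, a description that uses the genes themselves. By that rule chow 1 held 371 of 17997 barcodes (2.06%, 95% exact binomial interval 1.86% to 2.28%) and chow 2 held 66 of 11337 (0.582%, 0.451% to 0.740%). HFD + L-NAME 1 held 793 (6.19%, 5.78% to 6.62%), HFD + L-NAME 2 held 731 (8.61%, 8.02% to 9.23%) and the NO2-OA library held 1449 (9.02%, 8.58% to 9.48%). Both chow libraries lay below the other 3. Intervals here cover counting error only. These barcodes held 81.6% to 95.7% of all haemoglobin UMIs of their library, and the 4 haemoglobin genes made up 1.63% and 0.464% of all UMIs in chow, 4.71% and 8.29% under HFD + L-NAME and 6.03% with NO2-OA.

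**Figure D1:**
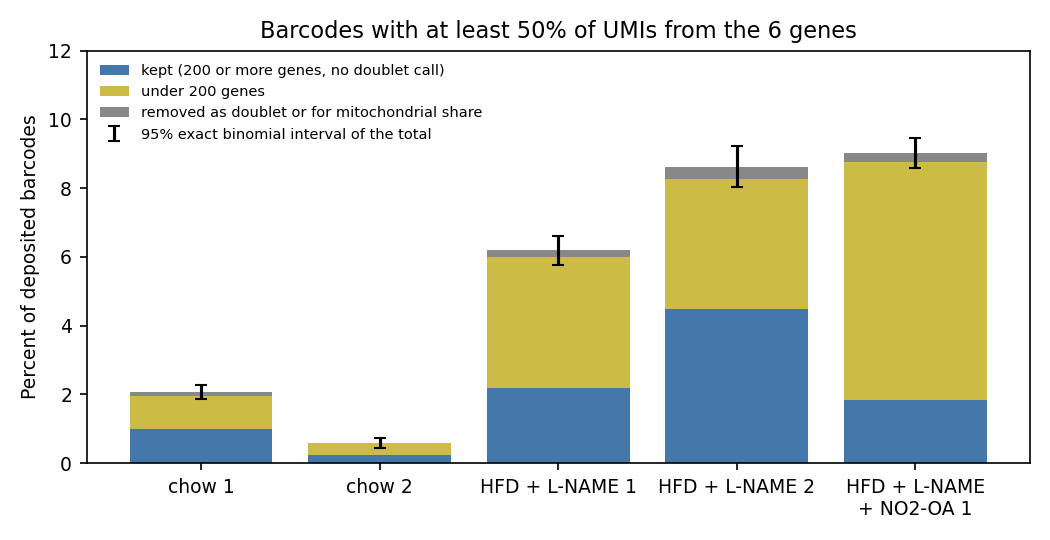
Percent of deposited barcodes (vertical axis) with at least 50% of UMIs from the 6 genes, per library, split into kept barcodes, barcodes under 200 genes and barcodes removed otherwise, with 95% exact binomial intervals of the total. The chow libraries stand at 2.06% and 0.582% and the other 3 at 6.19% to 9.02%, and the NO2-OA bar is mostly barcodes under 200 genes.

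Many red-cell barcodes fell under the 200-gene minimum: 174 and 40 in chow, 487 and 322 under HFD + L-NAME and 1109 with NO2-OA, which was 76.5% of that library's red-cell barcodes against 44.0% to 61.4% in the other 4. Of the red-cell barcodes that were kept, HFD + L-NAME 2 held the most, 380, and NO2-OA held 297, HFD + L-NAME 1 280, chow 1 180 and chow 2 26.

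Clustering without the 6 genes gave a cluster called erythroid-like from a list of other red-cell markers that includes Slc4a1, Epb42 and Rhd. All 13 measured had at least 1 UMI there, and 7 were found in at least 10% of its barcodes, the level used for naming. After filters the cluster held 180 and 27 cells in chow (1.23% and 0.279% of kept cells), 266 and 371 in HFD + L-NAME (2.49% and 5.19%) and 265 with NO2-OA (2.10%). Of these, 3, 3, 2, 0 and 2 cells in the same order had haemoglobin below 5% of UMIs. The HFD + L-NAME share was above both chow values, at a log2 ratio of 2.35 ± 1.02 (SE, 2 against 2 libraries), but did not pass edgeR's quasi-likelihood test (adjusted p = 0.388 over 11 classes). NO2-OA against HFD + L-NAME gave -0.87 ± 1.23 (adjusted p = 0.631 by edgeR, 1 library against 2). Without the gene minimum the first ratio was 2.38 ± 0.82 and the second turned to 0.32 ± 0.94, neither past the threshold.

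Within erythroid-like cells all 6 genes were present at high level in every library. These are UMI counts of 3′ ends, in which a transcript counts once whatever its length, so length does not bar setting genes beside each other. How reads matching both Hba-a1 and Hba-a2 were counted is not given. The level of each alpha gene, and of alpha against beta chains, is therefore uncertain. Hbb-bs, a beta chain, was the most abundant, at a mean of 2399.9 and 3124 UMIs per cell in chow, 3449 and 4482 under HFD + L-NAME and 3019 with NO2-OA. The alpha genes followed, Hba-a1 with 1173 and 1316 in chow, 1477 and 2151 under HFD + L-NAME and 1299 with NO2-OA. Hba-a2 had 942 and 988 in chow, 1103 and 1615 under HFD + L-NAME and 1004 with NO2-OA. The other beta gene, Hbb-bt, was lowest of the 4, with 732 and 774 in chow, 920.1 and 1042 under HFD + L-NAME and 758 with NO2-OA.

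That order of counts, Hbb-bs, Hba-a1, Hba-a2, Hbb-bt, held in each of the 5 libraries, with the uncertainty of the alpha genes given above. The enzymes lay far lower. Alas2 had 12.3 and 10.6 UMIs per cell in chow, 11.7 and 14.4 under HFD + L-NAME and 11.4 with NO2-OA. Bpgm had 10.4 and 15.7 in chow, 13.3 and 17.9 under HFD + L-NAME and 12.2 with NO2-OA. Chow and HFD + L-NAME libraries overlapped for both enzymes, while these means of the 4 haemoglobin genes were higher in both HFD + L-NAME libraries than in either chow library. The chow 2 means cover 27 cells, of which 24 held 167455 of its 167456 haemoglobin UMIs. In HFD + L-NAME 1, 264 of 266 cells held all of them. Divided over such cells alone, the Hbb-bs counts per cell were higher in chow 2 than in HFD + L-NAME 1, and those of Hba-a2 were about level. The separation from chow 2 therefore does not hold among them for Hbb-bs and Hba-a2. No share over all genes was taken on this scale. On the TMM-scaled CPM used in the test below, 5 of the 6 genes, all but Bpgm, were higher in both HFD + L-NAME libraries than in either chow library, as were 26.8% of 2462 genes tested. Total depth also differed between libraries, with chow 2 above HFD + L-NAME 1: the median was 5947.5 and 7920.0 UMIs in chow, 7703.5 and 10113 under HFD + L-NAME and 6632 with NO2-OA. The haemoglobin share lay close together, at a median of 90.2% and 91.3% in chow, 91.4% and 93.9% under HFD + L-NAME and 91.6% with NO2-OA. UMIs of other genes were few, with a median of 532.5 to 622.5 per cell.

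The make-up of the haemoglobin pool differed little between groups. Alpha chains held 40.3% and 37.2% of haemoglobin UMIs in chow, 37.1% and 40.5% under HFD + L-NAME and 37.9% with NO2-OA, so the groups overlapped (38.7% ± 2.23 against 38.8% ± 2.42, SD, n = 2 each, exact two-sided permutation p = 1.00). Hbb-bs held 78.4% ± 2.48 of beta UMIs in chow and 80.04% ± 1.55 in HFD + L-NAME (SD, n = 2 each, exact permutation p = 0.667). Alas2 stood at 2.34 and 1.70 UMIs per 1000 haemoglobin UMIs in chow, 1.68 and 1.55 under HFD + L-NAME and 1.88 with NO2-OA. Bpgm stood at 1.99 and 2.53 in chow, 1.92 and 1.92 under HFD + L-NAME and 2.00 with NO2-OA. For both enzymes the chow values lay above the HFD + L-NAME values in these cells. The exact permutation p was 0.333, the smallest that 2 against 2 libraries allow. For Alas2 the gap was narrow, at 1.70 against 1.68. Neither enzyme separated the groups in red-cell barcodes, those with at least 50%. There Alas2 stood at 2.01 ± 0.41 in chow and 1.68 ± 0.13 under HFD + L-NAME (SD, exact permutation p = 0.667). Bpgm stood at 2.10 ± 0.47 and 1.88 ± 0.03. Over all deposited barcodes both separated again (exact permutation p = 0.333 each). Alas2 stood there at 2.19 ± 0.28 in chow and 1.73 ± 0.16 under HFD + L-NAME, and Bpgm at 4.52 ± 1.80 and 2.11 ± 0.17 (SD). Those barcodes include cells other than red cells, some of which hold Bpgm UMIs, as given below. The values are thus not of red cells alone, and the part of the other cells was not tested. Of alpha UMIs in erythroid-like cells, 55.5% to 57.2% were counted to Hba-a1 in the 5 libraries, with the uncertainty of the copies given above.

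The first comparison asked how the genes differ between HFD + L-NAME and chow over all kept cells, where more red cells and more RNA per red cell cannot be told apart. All 6 were higher in both HFD + L-NAME libraries than in either chow library, a separation in that direction also seen for 12.5% of 20501 tested genes. Hba-a1 was at 2644 and 618 CPM (the usual depth-scaled count, here also scaled by TMM, edgeR's adjustment for library make-up) in chow, 6217 and 14682 under HFD + L-NAME and 6126 with NO2-OA. Hbb-bs was at 5228 and 1407 in chow, 14380.1 and 30568 under HFD + L-NAME and 14866 with NO2-OA.

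As log2 fold changes these were 2.68 ± 0.85 for Hba-a1 and 2.76 ± 0.76 for Hbb-bs (SE, 2 against 2 libraries). Hba-a2 stood at 2.64 ± 0.88, Hbb-bt at 2.49 ± 0.80, Alas2 at 2.14 ± 0.82 and Bpgm at 1.58 ± 0.47. None of the 6 passed edgeR (adjusted p = 1.00 each), where 0% of 20501 genes did and 2.87% had an unadjusted p below 0.05. DESeq2 passed 4 of the 6, the haemoglobin genes, with adjusted p of 0.00630 for Hbb-bs to 0.0429 for Hbb-bt, where it passed 0.215% of all genes. The size depended on the set: Hba-a1 differed by 1.23 within set 1 and 4.57 within set 2, and Bpgm by 0.63 and 2.59. Without the erythroid-like cells Bpgm was at -0.04, close to no difference.

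Between NO2-OA and HFD + L-NAME the 6 genes lay between -0.77 ± 1.01 (Hba-a1) and -0.34 ± 0.97 (Alas2) on the log2 scale over all kept cells (SE, 1 against 2 libraries). None passed edgeR (adjusted p = 1.00 each, 0% of genes called, 2.84% with an unadjusted p below 0.05) and none passed DESeq2. DESeq2 passed 0.688% of all genes. Within set 1 the values ran from -0.10 for Hbb-bt to 0.24 for Alas2, with Hba-a1 at -0.02.

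Within erythroid-like cells the HFD + L-NAME against chow difference depended on the scaling. With TMM the 6 genes were at 1.29 ± 0.74 (Hba-a1), 1.24 ± 0.72 (Hba-a2), 1.23 ± 0.78 (Hbb-bs), 1.09 ± 0.70 (Hbb-bt), 0.94 ± 0.49 (Alas2) and 0.97 ± 0.50 (Bpgm). None passed edgeR (adjusted p of 0.314 to 0.450), where 2.8% of 2462 genes did. DESeq2 also passed none, where it passed 1.46% of genes. With a replicate block most of the 6 passed edgeR, as given in the part on processing, though the labels do not show the libraries to be paired. Within set 1 the 6 genes lay between 0.47 (Alas2) and 1.06 (Hbb-bs), and within set 2 between 0.99 (Bpgm) and 1.51 (Hba-a2). With library totals alone, the same genes lay at 0.06, 0.01, 0.06, -0.08, -0.28 and -0.20, while the median over all 2462 genes moved from -0.04 to -1.18. Under either scaling the 6 sat 0.90 to 1.32 above that median. Summed B-cell markers in these cells were lower in the same libraries, at 238 and 212 CPM in chow, 102 and 42.8 under HFD + L-NAME and 57.1 with NO2-OA, and platelet markers ran 751 and 510.2, 631 and 324, and 73.5. Their part in the result was not tested.

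**Figure D2:**
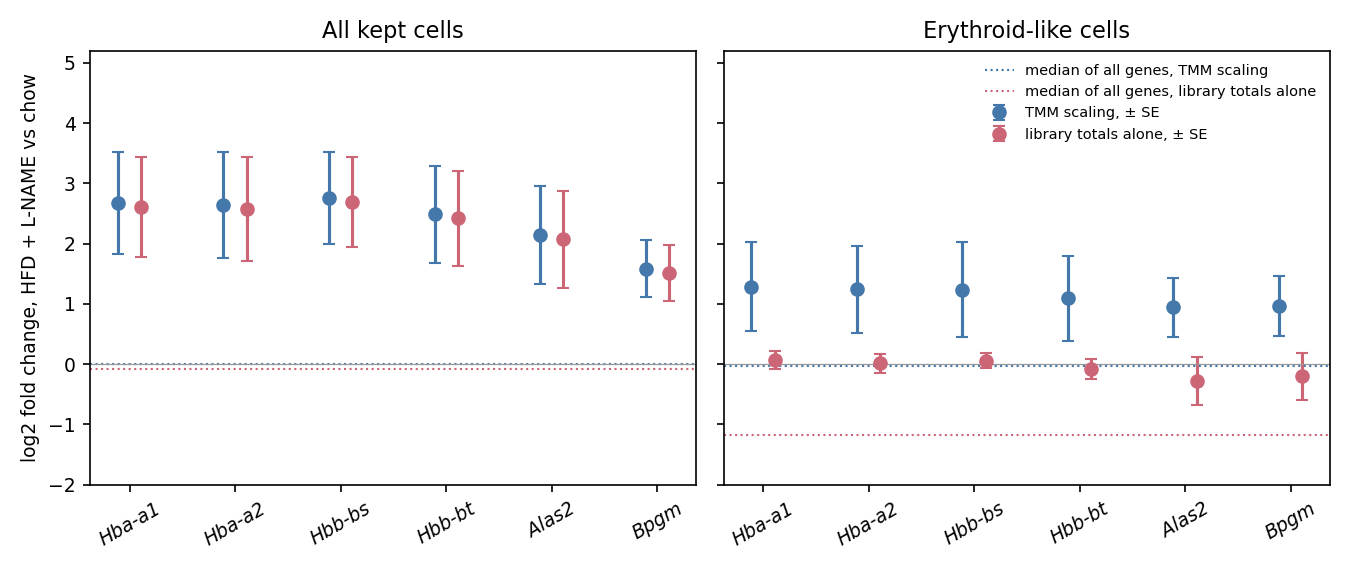
Log2 fold change of each gene, HFD + L-NAME against chow (vertical axis, ± SE), over all kept cells (left) and erythroid-like cells (right), with TMM scaling in blue and library totals alone in red. Dotted lines mark the median over all genes; in erythroid-like cells the genes move from between 0.94 and 1.29 to between -0.28 and 0.06, and that median moves with them.

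NO2-OA against HFD + L-NAME in erythroid-like cells gave -0.34 ± 0.90 for Hba-a1, -0.30 ± 0.88 for Hba-a2, -0.24 ± 0.95 for Hbb-bs, -0.19 ± 0.86 for Hbb-bt, -0.02 ± 0.60 for Alas2 and -0.21 ± 0.61 for Bpgm. None passed edgeR (adjusted p of 0.995 to 0.996), where 2.84% of genes did, and none passed DESeq2 (0.731% of genes). Within set 1 all 6 were above 0, from 0.28 for Hbb-bt to 0.52 for Alas2, and all 6 were above 0 with a replicate block too.

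Other red-cell genes were read from lists by role. With TMM scaling, Urod and Ftl1, a haem synthesis enzyme and a ferritin chain, were 2 of 8 tested genes of haem synthesis and iron to pass edgeR in erythroid-like cells, HFD + L-NAME against chow, at 1.54 ± 0.47 and 1.59 ± 0.48 (adjusted p = 0.0425 each). Gclm, of glutathione synthesis, was 1 of 7 chaperone and antioxidant genes, at 1.504 ± 0.44 (adjusted p = 0.0390 by edgeR). Isg20 was 1 of 17 reticulocyte genes, at 1.55 ± 0.46, and Car2, a carbonic anhydrase, was 1 of 9 glycolysis and red-cell enzyme genes, at 1.74 ± 0.48 (adjusted p = 0.0392 and 0.0325 by edgeR). In this direction 2.64% of 2462 genes passed. None of 8 erythroid transcription genes passed, and the 4 with the highest mean level, Lmo2, Mxi1, Foxo3 and E2f2, were at 0.92 ± 0.45, 0.97 ± 0.48, 0.59 ± 0.54 and 0.23 ± 0.43. Neither other globin gene tested passed, Hbq1b at 0.84 ± 0.44 and Hbq1a at 0.37 ± 0.53, nor did the haem transporter gene Slc48a1, the 1 clearance gene tested, at 1.06 ± 0.44 (adjusted p of 0.190 to 0.851 for these 7 by edgeR).

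Urod, Ftl1, Gclm, Isg20 and Car2 were at 0.30 to 0.61 on the log2 scale with library totals alone, where none of them passed edgeR and 0 of 2462 genes did. No gene passed either with the 4 chow and HFD + L-NAME libraries alone, with predicted doublets kept, with the 6 genes among the variable genes or at resolution 2, and 0 to 21 did with 1 library left out. DESeq2 passed neither Urod nor Isg20 (adjusted p = 0.0570 and 0.0565), and with its size factors edgeR lost Urod (adjusted p = 0.0509). Medians of the lists lay between 0.48 and 1.07 with TMM, against -0.04 over all genes, and between -0.72 and -0.02 with library totals alone, against -1.18. In NO2-OA against HFD + L-NAME, Cpox, a haem synthesis enzyme, passed edgeR at 2.42 ± 0.62 (adjusted p = 0.00703, in a direction in which 0.0812% of genes passed), from 9 and 0 UMIs in chow, 17 and 13 under HFD + L-NAME and 58 with NO2-OA. It passed neither DESeq2 (adjusted p = 0.151) nor edgeR with library totals alone (adjusted p = 0.917). Over all kept cells no list gene passed edgeR in either comparison.

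Outside red cells the haemoglobin genes were also found in every class named. In B-like cells the 4 genes together had a mean of 0.749 and 0.327 UMIs per cell in chow, 2.93 and 15.8 under HFD + L-NAME and 7.69 with NO2-OA. The median cell had 0, 0, 1, 3 and 2, so a few cells carried much of the mean. Cells with at least 5% haemoglobin UMIs numbered 2, 0, 5, 7 and 17 of 2970 to 6242 B-like cells and held 23.5%, 0%, 42.5%, 76.7% and 63.4% of the class's haemoglobin UMIs. Below 5% the means were 0.573 and 0.327 in chow, 1.69 and 3.69 under HFD + L-NAME and 2.82 with NO2-OA. T-like cells below 5% had 0.595 and 0.311, 1.99 and 3.48, and 3.29. In both classes the chow libraries lay below the other 3, as did their red-cell barcodes. Platelet-like cells below 5% did not follow that order, with 15.1 and 5.11 haemoglobin UMIs per cell in chow, 17.7 and 5.95 under HFD + L-NAME and 5.72 with NO2-OA. Their depth differed widely between libraries and Hba-a1 was their most abundant haemoglobin gene, as given below. Hbb-bs in the same cells did follow the order, at 1.35 and 0.398 in chow, 2.01 and 1.51 under HFD + L-NAME and 1.48 with NO2-OA. Over all kept cells the highest means of a library were 195.6 UMIs per cell in NK-like and 183.4 in cavity macrophage-like cells, which were 4.02 and 7.83 at most below 5%.

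**Figure D3:**
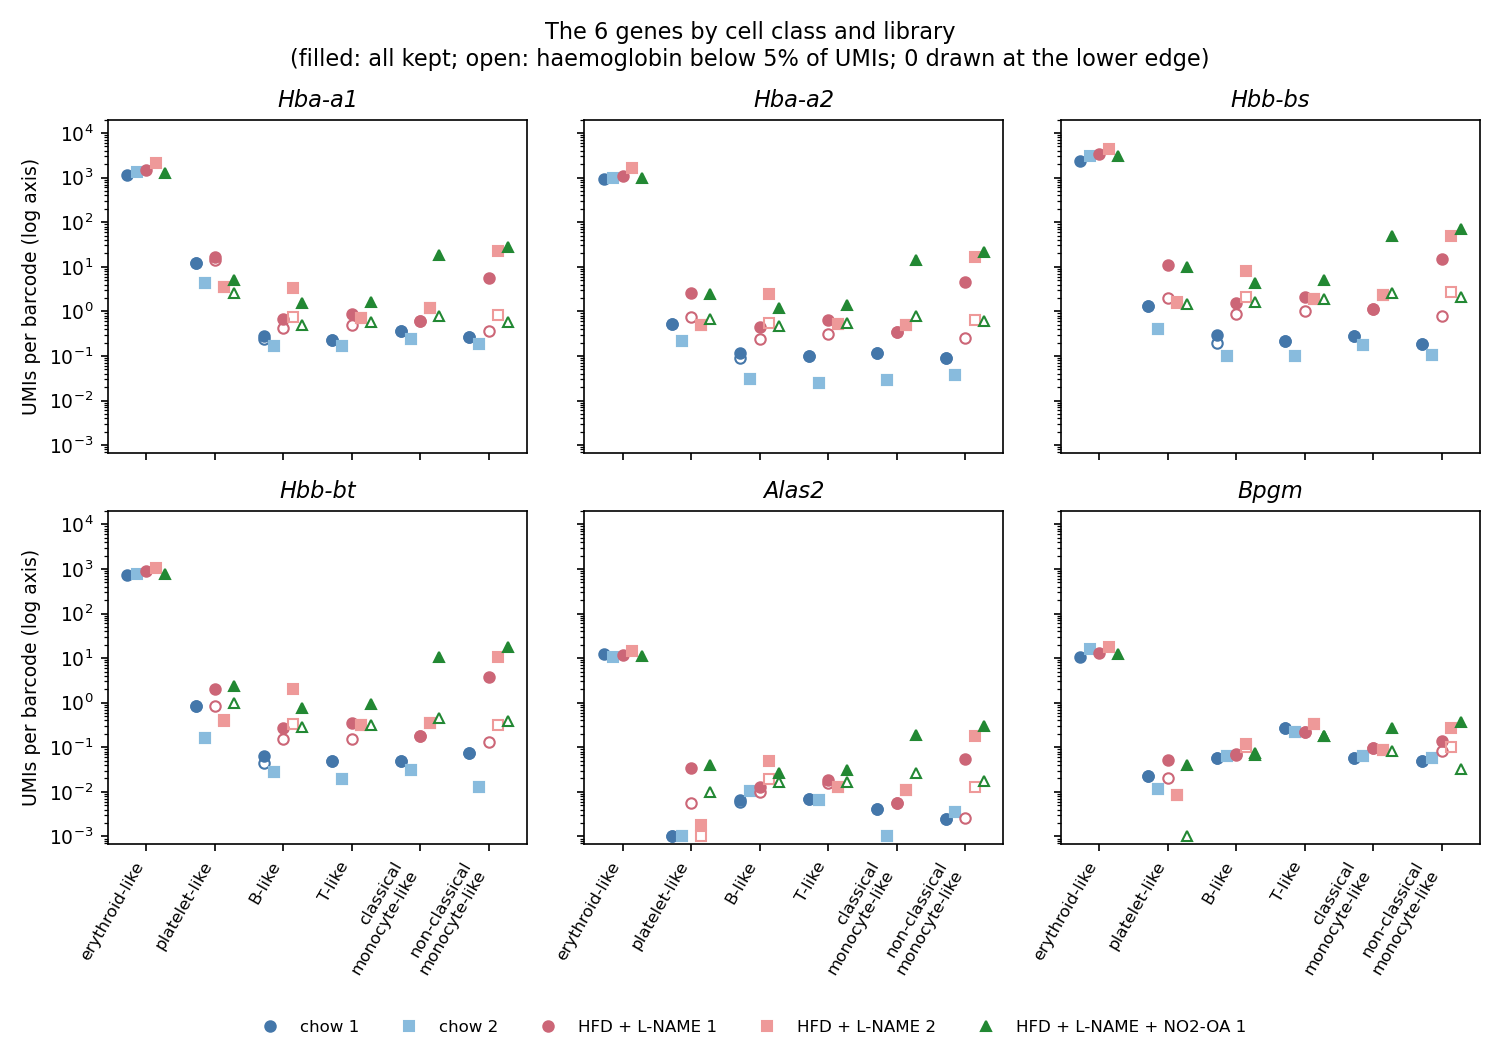
Mean UMIs per cell of each gene (log axis) in 6 classes, with a symbol for each library; filled symbols are all kept cells and open symbols cells with haemoglobin below 5% of UMIs. Erythroid-like cells stand at 732 to 4482 for the haemoglobin genes, Hba-a1 in platelet-like cells stands above B-like and T-like cells, and Bpgm stands higher in T-like than in B-like cells.

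The monocyte classes show how far a few cells can carry such a mean. In classical monocyte-like cells Hbb-bs had 0.283 and 0.175 UMIs per cell in chow, 1.14 and 2.30 under HFD + L-NAME and 49.5 with NO2-OA. In the NO2-OA library 16 of 624 cells, each with at least 5% haemoglobin, held 95.1% of the class's haemoglobin UMIs, and no such cell was found in the other 4 libraries. With these cells Hba-a1, Hbb-bs and Hbb-bt passed edgeR in NO2-OA against HFD + L-NAME at 4.55 ± 0.38, 5.02 ± 0.42 and 5.58 ± 0.38 (adjusted p = 5.50e-04, 7.53e-04 and 5.53e-05, the only genes called higher, 0.0254% of 11833, with 0.0338% called in either direction and 1.62% at an unadjusted p below 0.05). Without them, an alternative chosen after seeing the data, the values were 0.02, 0.78 and 1.02 and none of the 6 genes passed. DESeq2 passed 4 of the 6 with all cells, Hba-a2 being the additional one (adjusted p = 0.00665), where it passed 0.0845% of genes.

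Non-classical monocyte-like cells gave the same picture for HFD + L-NAME against chow. Hbb-bs was at 7.39 ± 0.70 with all cells and 3.15 ± 0.58 below 5% haemoglobin, and 2 and 3 cells of the 2 HFD + L-NAME libraries held 94.7% and 95.6% of haemoglobin UMIs. None of the 6 genes passed edgeR there (adjusted p of 0.318 to 0.869, 0% of 11258 genes called, 2.8% with an unadjusted p below 0.05), while DESeq2 passed 5 (0.133% of all genes). In NO2-OA against HFD + L-NAME none of the 6 passed either (Hbb-bs 1.60 ± 0.62, adjusted p = 1.00 by edgeR, 0% of genes called, 2.25% with an unadjusted p below 0.05).

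In the other classes tested, edgeR passed none of the 6 genes in HFD + L-NAME against chow or in NO2-OA against HFD + L-NAME. Among all genes, 0% passed in B-like and T-like cells in either comparison, and 0% and 0.0314% passed in platelet-like cells, and an unadjusted p below 0.05 was found in 1.23% and 1.52% of genes in B-like cells, 1.73% and 1.81% in T-like cells and 1.76% and 5.7% in platelet-like cells, in the same order of comparisons. Classical monocyte-like cells likewise passed none in HFD + L-NAME against chow, where 0.00845% of genes passed. With 1 library left out 1 to 4 of the 6 passed there, and with predicted doublets kept Hbb-bs turned from 2.51 ± 0.37 to -1.48. The largest difference of Hbb-bs among B-like, T-like and platelet-like cells in HFD + L-NAME against chow was 4.03 ± 0.81, in B-like cells (adjusted p = 1.00 by edgeR), and it was 2.83 ± 0.41 below 5% haemoglobin. In T-like cells Hbb-bs was at 3.47 ± 0.45 (adjusted p = 0.713 by edgeR, 1.90e-14 by DESeq2, which passed 0.0495% of genes). In that comparison DESeq2 passed 0 of the 6 genes in B-like cells (0.00588% of genes), 3 in T-like cells, 2 in platelet-like cells (0.0314%) and 2 in classical monocyte-like cells (0.127%). In NO2-OA against HFD + L-NAME it passed none of the 6 in B-like, T-like, platelet-like or non-classical monocyte-like cells, where it passed 0.241%, 0.303%, 0.0314% and 0.0888% of genes and gave no adjusted p for Alas2 in the last class.

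Hba-a1 was the most abundant haemoglobin gene in platelet-like cells with haemoglobin below 5%, given here as levels with no test between classes. Below 5% haemoglobin they had 12.4 and 4.33 Hba-a1 UMIs per cell in chow, 14.2 and 3.55 under HFD + L-NAME and 2.61 with NO2-OA, at a median depth of 5235, 859, 4297, 919 and 1190.0 UMIs. Hba-a2 had 0.520 and 0.220, 0.735 and 0.491, and 0.657, and Hbb-bs had 1.35 and 0.398, 2.01 and 1.51, and 1.48. Hba-a1 thus held 96.0% and 95.2% of alpha UMIs in chow, 95.1% and 87.9% under HFD + L-NAME and 79.9% with NO2-OA, all above the 55.5% to 57.2% of erythroid-like cells of the same libraries. Against the beta gene the count was 9.18 and 10.9 Hba-a1 UMIs per Hbb-bs UMI in chow, 7.06 and 2.36 under HFD + L-NAME and 1.76 with NO2-OA, where erythroid-like cells had 0.421 to 0.489. High Hba-a1 shares of alpha UMIs, from fewer UMIs, were also found in other classes below 5%: 91.4% in dendritic-like cells of chow 1 (74 Hba-a1 UMIs) and 72.9% to 81.1% in those of 3 other libraries, 89.7% in classical monocyte-like cells of chow 2 and 80.3% in neutrophil-like cells of chow 1. In dendritic-like cells there were 0.571 to 2.06 Hba-a1 UMIs per Hbb-bs UMI. The low-haemoglobin set was chosen after seeing the data. With all platelet-like cells the ratios were 9.18, 10.9, 1.54, 2.23 and 0.500.

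**Figure D4:**
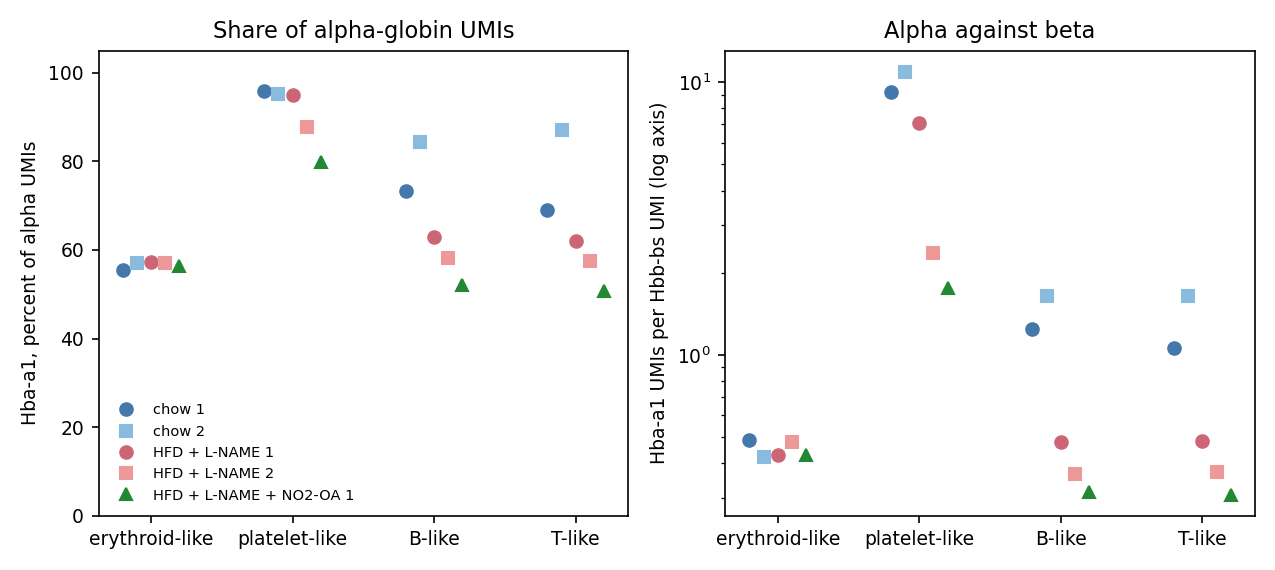
Share of alpha UMIs counted to Hba-a1 (left, percent) and Hba-a1 UMIs per Hbb-bs UMI (right, log axis) by class and library, for all erythroid-like cells and for cells of the other classes below 5% haemoglobin. Erythroid-like values lie within 55.5% to 57.2%, platelet-like values within 79.9% to 96.0%, and B-like and T-like values from 87.05% in chow 2 down to 50.7% with NO2-OA.

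The gap to B-like cells was also seen at equal depth. With every cell thinned to 1000 UMIs, 58 to 721 platelet-like cells per library being deep enough, Hba-a1 was seen in 84.2% and 70.4% of them in chow, 91.0% and 88.8% under HFD + L-NAME and 63.8% with NO2-OA, against 3.04% to 9.25% of B-like cells. Unthinned, the shares were 59.8% to 95.2% and 12.02% to 47.6%. It was also seen without the other genes. Among kept platelet-like cells of any haemoglobin share with no UMI of the other 3 haemoglobin genes (129, 152, 64, 192 and 12 cells), Hba-a1 was present in 81.4%, 47.4%, 73.4%, 80.2% and 83.3%. In B-like cells chosen the same way it was present in 17.4%, 11.4%, 25.7%, 43.6% and 30.1%, at greater depth. Summed erythroid markers stood at 334 to 716 CPM in platelet-like cells and 2304 to 3717 CPM in erythroid-like cells, with Ermap at 0 in the former. The division of alpha reads between the near copies, given above, applies to these values too.

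In B-like cells Hba-a1 was set beside the UMIs of platelet markers, as a description, in cells below 5% haemoglobin, a set chosen after seeing the data. In chow 1, B-like cells with 0, 1 to 9 and 10 or more platelet-marker UMIs (1091, 4579 and 570 cells) had 0.125, 0.231 and 0.568 Hba-a1 UMIs per cell, while Hbb-bs was at 0.191, 0.194 and 0.225. Chow 2 gave 0.0851, 0.191 and 0.478 for Hba-a1 and 0.0920, 0.104 and 0.135 for Hbb-bs. In HFD + L-NAME 1 Hba-a1 ran 0.356, 0.395 and 0.972 and Hbb-bs 1.04, 0.746 and 1.24, and in HFD + L-NAME 2 they ran 0.623, 0.824 and 1.48 and 1.95, 2.16 and 2.32. In the NO2-OA library, where 545 B-like cells had 1 to 9 platelet-marker UMIs, Hba-a1 was at 0.504 without and 0.453 with them. Hba-a1 in platelet-like cells did not differ between the groups past edgeR's threshold: 0.66 ± 0.49 for HFD + L-NAME against chow and -0.79 ± 0.62 for NO2-OA against HFD + L-NAME (adjusted p = 0.999 and 0.814).

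Bpgm was higher in T-like than in B-like cells of every library. It was at 42.6 and 28.3 CPM of summed counts in chow, 31.7 and 35.6 under HFD + L-NAME and 29.7 with NO2-OA, against 10.7 and 10.0, 11.6 and 12.8, and 12.98 in B-like cells. All 5 T-like values lay above all 5 B-like values. With cells thinned to 1000 UMIs and haemoglobin below 5%, 2.66% to 4.42% of T-like and 0.986% to 1.28% of B-like cells had a Bpgm UMI, and 12.99% to 21.1% and 4.94% to 8.47% unthinned. Alas2 showed no such gap, with a UMI in 0.604% to 1.76% of T-like and 0.609% to 1.95% of B-like kept cells. Bpgm in T-like cells did not pass edgeR in HFD + L-NAME against chow (-0.04 ± 0.24, adjusted p = 1.00) or in NO2-OA against HFD + L-NAME (-0.24 ± 0.30, adjusted p = 1.00). Alas2 had no UMI in the platelet-like cells of chow, 0 of 692 and 0 of 259, which allow shares of cells with a UMI of up to 0.434% and 1.16% and set no limit on cells that hold the transcript.

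Across 45 sums of class and library that share their libraries, the gene most like the haemoglobin sum on a log2(CPM + 1) scale was Alas2 (Pearson r = 0.918, over 12342 genes). Slc4a1 (0.880), Trim10 (0.850), Prxl2a (0.845), Tspo2 (0.836), Hbq1b (0.825) and Apol11b (0.815) were also among the 10 most alike, and Bpgm ranked 12th (0.788). The genes most like Bpgm were Tspo2 (0.936), Epb42 (0.932), Slc4a1 (0.932), Alas2 (0.929) and Trim10 (0.927). Within the 6, Hba-a2 and Hbb-bs kept r = 0.995 over the 40 sums that are not erythroid-like, Hba-a1 and Hbb-bs 0.929, and Hba-a1 and Bpgm 0.33.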

How the data were processed

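The matrices hold whole-number UMI counts per gene and barcode, made by the authors with Cell Ranger 7.1.0 per the file headers, on mm39 per the submitters' processing notes. The annotation release is not given in the sources used here. The genes, lists and class markers were chosen with earlier results of these data known. Barcodes below 10% mitochondrial UMIs were clustered with scanpy 1.11.5 (2000 variable genes without the 6 genes, 40 components, 20 neighbours, Leiden resolution 1). Kept cells had at least 200 genes and no scrublet doublet call, at an assumed rate of 0.8% per 1000 barcodes. Clusters were named by marker lists, with thresholds set after the data were seen (mean score of at least 1, 3 or more markers in at least 10% of cells, under 50% doublets). Counts summed per class and library were tested with edgeR 4.0.16 (quasi-likelihood, filterByExpr, TMM, group term alone, Benjamini-Hochberg adjusted p below 0.05), and DESeq2 1.42.0 was an alternative. SE is the log2 fold change divided by the square root of F. The fits were tested on simulated data. Named genes from the other lists were up to 4 past the threshold, else the 4 with the highest mean level. Genes most like the haemoglobin sum or Bpgm were taken among those with at least 10 CPM in a class sum, the first 10 and 5. Some genes that these rules name are not reported here.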

Additional observations from a re-analysis of the deposited data

Results flagged for a closer look

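A cluster with both red-cell and lymphocyte genes was kept out of the classes above. It held 1.53% of kept cells in the NO2-OA library (193 cells), against 0.163% and 0.0619% in chow and 0.197% and 0.210% in HFD + L-NAME, so the signal lay above that of both control libraries. Of its 482 barcodes 46.3% were predicted doublets, and the median share of haemoglobin was 39.0%. Counted as erythroid-like, as an alternative chosen after seeing the data, this cluster moved all 6 genes lower in NO2-OA than in HFD + L-NAME. They were then at -3.04 (Hba-a1) to -2.66 (Alas2) on the log2 scale, with 1 library in the NO2-OA group. The joined cells, which also carry lymphocyte RNA, numbered 193 with NO2-OA against 21 and 15 under HFD + L-NAME. Their part in these values was not tested.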

How the results depend on the processing

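Depth limited the erythroid-like sums of chow 2, with 27 cells, most. Over all kept cells no alternative made edgeR pass any of the 6 genes, and DESeq2 passed 4 in HFD + L-NAME against chow, with 44 genes in all, and 141 genes in NO2-OA against HFD + L-NAME. Leaving out 1 library gave 0 to 3 genes and 0 to 56 genes. Without the erythroid-like cells Bpgm turned to -0.037 in HFD + L-NAME against chow. In NO2-OA against HFD + L-NAME all 6 turned to above 0 with at least 500 genes per barcode (Hba-a1 1.05, Hba-a2 1.18, Hbb-bs 1.31, Hbb-bt 1.20, Alas2 1.39, Bpgm 0.78) and without the erythroid-like cells (1.24, 1.43, 1.57, 1.49, 1.60 and 0.88). Alas2 also turned with all deposited barcodes (0.10) and with no gene minimum (0.20). Leaving out 1 library gave -1.22 to 0.018 for Hba-a2, -1.04 to 0.020 for Hbb-bs, -0.74 to 0.21 for Alas2 and -0.81 to 0.063 for Bpgm. The cause was not tested.

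In erythroid-like cells, HFD + L-NAME against chow, 69 genes passed. The count was 36 with DESeq2, 1 with no filter on low counts, 0 with library totals alone, 0 with the 4 libraries alone, 15 with a mitochondrial share below 5%, and 0 each with predicted doublets kept, with the 6 genes among the variable genes and at resolution 2. Leaving out 1 library gave 0 to 21. Library totals alone turned Hbb-bt to -0.078, Alas2 to -0.28 and Bpgm to -0.20. With the red-cell and lymphocyte cluster joined, 1 of the 6 genes passed here, and all 6, lower, with 446 genes in all passed in NO2-OA against HFD + L-NAME. There 18 genes passed with DESeq2, 12 with no filter, 2 with library totals alone and 0 to 87 with 1 library left out. In that comparison library totals alone turned Hbb-bs to 0.012, Hbb-bt to 0.020, Alas2 to 0.21 and Bpgm to 0.048, and resolution 2 turned Hbb-bt to 0.015, Alas2 to 0.18 and Bpgm to 0.0040. Alas2 turned to 0.11 with DESeq2 and with its size factors in edgeR, 0.15 with the 6 genes among the variable genes and 0.10 with no gene minimum. Leaving out 1 library gave -0.55 to 0.55 for Hba-a1, -0.51 to 0.60 for Hba-a2, -0.39 to 0.54 for Hbb-bs, -0.28 to 0.46 for Hbb-bt, -0.15 to 0.70 for Alas2 and -0.38 to 0.60 for Bpgm.

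With a replicate block, 5 of the 6 genes and 118 genes in all passed in erythroid-like cells in HFD + L-NAME against chow, and NO2-OA against HFD + L-NAME turned to 0.20 for Hba-a1, 0.22 for Hba-a2, 0.30 for Hbb-bs, 0.18 for Hbb-bt, 0.32 for Alas2 and 0.40 for Bpgm. The block passed 4 of the 6 genes in platelet-like, T-like and classical monocyte-like cells and 1 in non-classical monocyte-like cells in HFD + L-NAME against chow, and 1 in platelet-like and 5 in classical monocyte-like cells in the other comparison. For these other classes no share over all genes was set beside the counts. The counts therefore do not show a result particular to the 6 genes. The replicate numbers are not shown to pair the libraries: the labels name no shared animal or day, and there are only 2 pairs. The deviations of chow 1 and HFD + L-NAME 1 from their group means correlated positively, at 0.394 over genes. What libraries of the same number share was not tested.

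In the other classes, HFD + L-NAME against chow, DESeq2 passed 2 of the 6 genes in platelet-like, 3 in T-like, 2 in classical and 5 in non-classical monocyte-like cells. No filter on low counts passed 3 in T-like, 4 in classical and 2 in non-classical cells, and resolution 2 passed 3 in platelet-like cells. Leaving out 1 library gave 0 to 3 in platelet-like, T-like and non-classical cells, 1 to 4 in classical cells and 0 to 2 in B-like cells. In NO2-OA against HFD + L-NAME no filter passed 3 in T-like, 5 in classical and 1 in non-classical cells, predicted doublets kept and barcodes with haemoglobin below 5% each left 0 in classical cells, and leaving out 1 library gave 3 to 5 there. No share over all genes was set beside the counts with no filter, at resolution 2 or with 1 library left out. Those counts too show nothing particular to the 6 genes. Hbb-bs in platelet-like cells turned to -0.50 with doublets kept and -0.49 below 5%, and in B-like cells it ran from -0.20 to 1.51 with 1 library left out. In HFD + L-NAME against chow doublets kept turned Hba-a1, Hbb-bs and Hbb-bt in classical cells to -1.37, -1.48 and -1.31, and Bpgm in T-like cells was at 0.0025 below 5% mitochondrial share and -0.28 to 0.24 with 1 library left out. The share of erythroid-like cells in NO2-OA against HFD + L-NAME turned to 0.32 with no gene minimum. The alpha share difference turned to -0.75 points in barcodes of at least 50% and -0.84 in all barcodes. With DESeq2 1 membrane, 1 reticulocyte and 1 glycolysis gene passed over all kept cells in HFD + L-NAME against chow and 1 transcription gene in the other comparison, and in erythroid-like cells 2 chaperone and antioxidant genes, 0 reticulocyte genes and, in NO2-OA against HFD + L-NAME, 0 haem synthesis genes. At least 500 genes per barcode in erythroid-like and platelet-like cells, and a mitochondrial share below 5% in platelet-like cells, were not run, since a library was left with 1, 36 and 31 cells.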
